A study of Mus musculus with 10 samples.

Results

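Histone-mark peaks were described at 6 T-box genes of the limb and pharynx, *Tbx1*, *Tbx2*, *Tbx3*, *Tbx4*, *Tbx15* and *Tbx18*, of 22359 protein-coding genes in the annotation. The genes were chosen by values measured in these peak lists, in part because the strongest H2AK119ub peak of the SCL-deficient cells lies in *Tbx15*. A peak was assigned to a gene when it lay within 2500 bp of a protein-coding transcription start site (TSS) or overlapped the gene body, and this span is called the window below. By this rule, 78 of 70826 peaks belonged to the 6 genes. All 6 genes are described, and presence or absence of a mark is given as a description with no test, beside the share of all protein-coding genes with the same mark.

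The peak lists came from ChIP-Rx, a ChIP-seq with *Drosophila* cells added as a constant reference, in cells of day 4 embryoid bodies, the clusters that mouse embryonic stem cells form as they differentiate, sorted as positive for mCherry. In the *Scl:mCherry* line (WT), the reporter leaves SCL (TAL1) functional, and in the line labelled Scl d/d (Delta), which carries the mCherry reporter too, the product lacks its basic helix-loop-helix domain. SCL is a transcription factor required for blood formation. The strain is labelled C57Bl/6 X Sv129 for 3 libraries, and the final number of that label runs on in the other 7. Both lines were sorted on the reporter itself. There were 4 antibodies (H2AK119ub, H3K27me3, H3K4me3 and H3K27ac), each with 1 library per genotype, and 2 input libraries not analysed here. No difference given below therefore has a replicate check, and read depth cannot be taken from a list of peaks. The paper's reporting summary lists mapped reads per library, which were not used here. The lists held 4922 (WT) and 2388 (Delta) peaks of H2AK119ub, 11345 and 10881 of H3K27me3, 16038 and 15412 of H3K4me3, and 4571 and 5269 of H3K27ac. The numbers of peaks differ between genotypes, and the part that depth or enrichment plays in this was not tested. From signal scaled by the *Drosophila* reference and from western blots, the paper reports lower H2AK119ub and H3K27me3 across the genome in Delta. The peak lists and fold enrichments below do not carry that scaling and do not measure such a change in level.

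T-box proteins are transcription factors that share a DNA-binding domain, the T-box, and many act as dosage-sensitive regulators of organ formation. *Tbx1* is needed for the pharyngeal arches and their arteries, *Tbx2* and *Tbx3* encode repressors active in limb, heart and outflow regions, *Tbx4* acts in the hindlimb bud and lung, and the closely related *Tbx15* and *Tbx18* act in skeletal and somitic mesoderm. H2AK119ub is deposited by Polycomb repressive complex 1 and H3K27me3 by Polycomb repressive complex 2, H3K4me3 marks CpG-rich promoters, and H3K27ac marks active promoters and enhancers. The 6 genes are known mainly for roles outside blood.

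In WT, the 6 genes all had peaks of H2AK119ub, H3K27me3 and H3K4me3, and 1, *Tbx3*, had a peak of H3K27ac. In all protein-coding genes, the share with a peak in WT was 10.8% for H2AK119ub, 36.7% for H3K27me3, 61.9% for H3K4me3 and 20.8% for H3K27ac. In Delta, H2AK119ub was called at 5 of the 6 genes (5.7% of all genes), H3K27me3 at 6 (34.6%), H3K4me3 at 6 (61.4%) and H3K27ac at 1 (23.6%). *Tbx1*, *Tbx2*, *Tbx4*, *Tbx15* and *Tbx18* thus shared one combination, H2AK119ub, H3K27me3 and H3K4me3 in both genotypes without H3K27ac, which 4.07% of all genes had. *Tbx3* had another, H3K27me3, H3K4me3 and H3K27ac in both genotypes with H2AK119ub in WT alone, which 0.286% of all genes had. H2AK119ub in WT without Delta, whatever the other marks, was found at 5.91% of all genes. These combinations are part of how the genes were chosen.

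**Figure D1:**
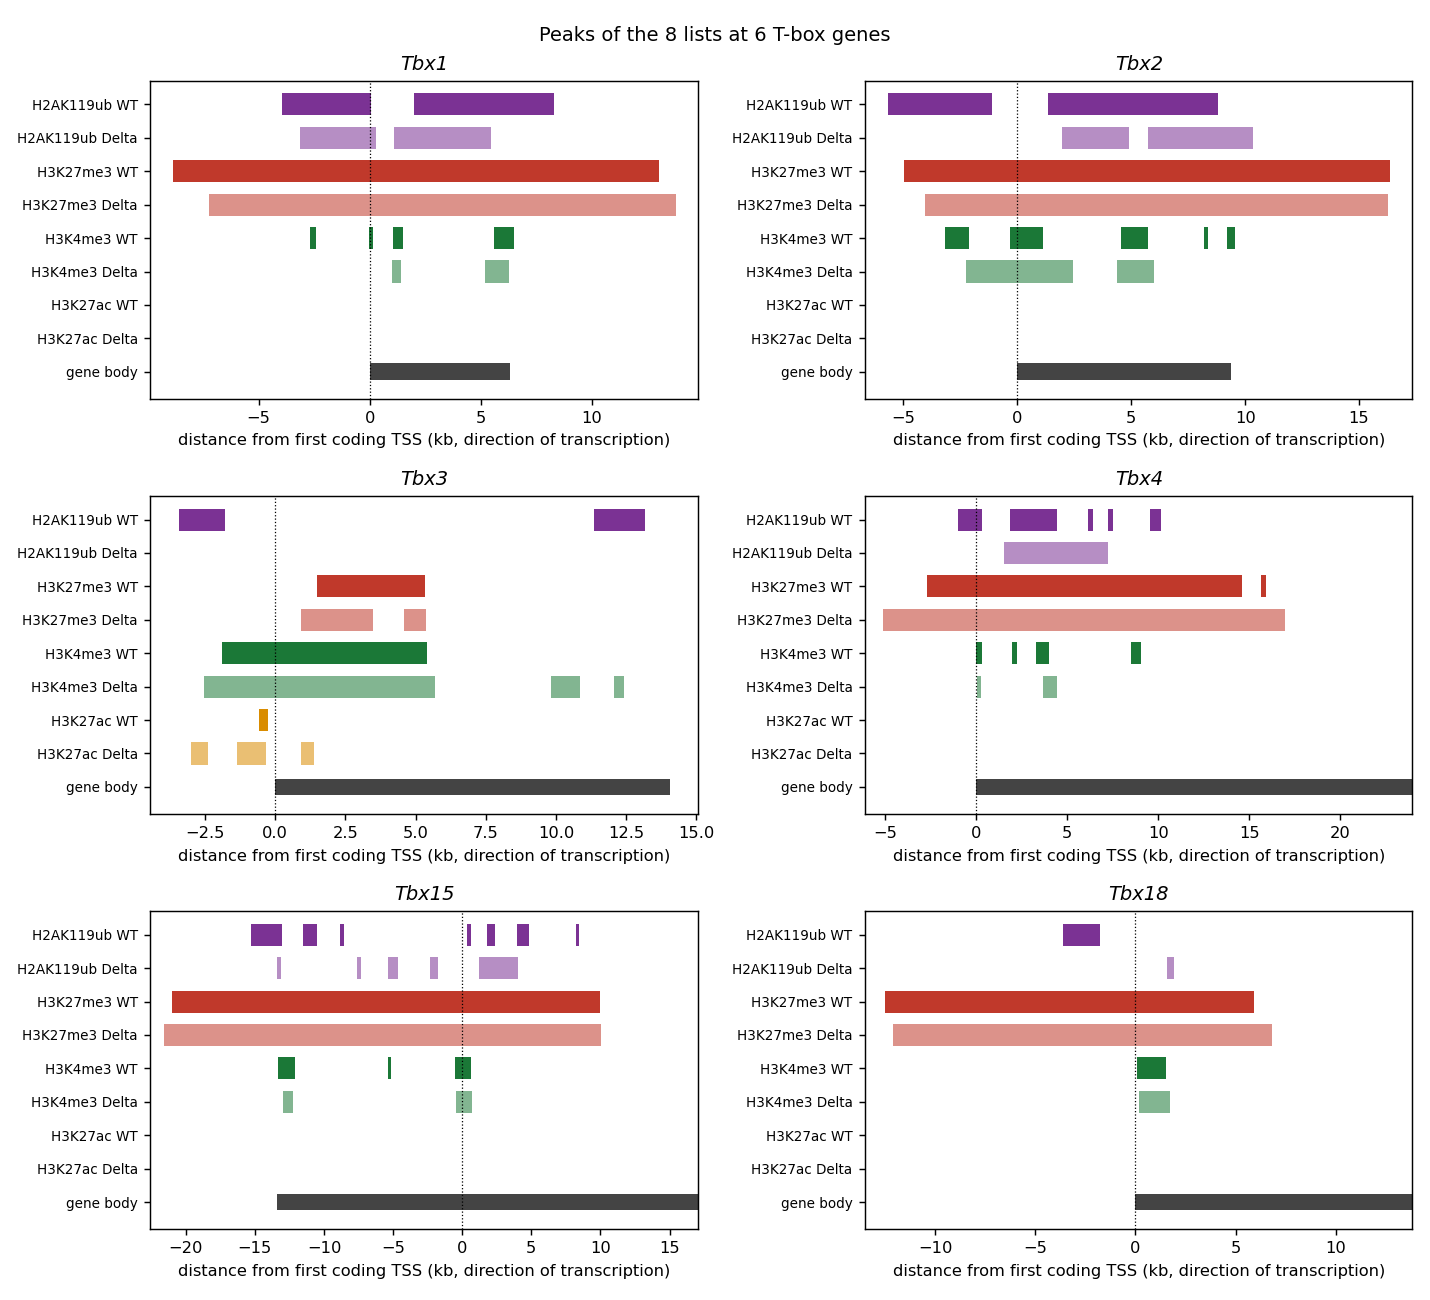
Peaks of the 8 lists at each gene, as bars along the distance from the first coding TSS in the direction of transcription (kb), in dark colour for WT and light colour for Delta; the grey bar is the gene body, cut at the axis where it is longer. H3K27me3 spans the TSS of 5 genes in 1 long peak per genotype, *Tbx3* has a long H3K4me3 peak instead, and H3K27ac is drawn at *Tbx3* alone.

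The H2AK119ub calls were the weakest of the repressive marks. At a stricter threshold, a −log10 q of 3 or more, H2AK119ub was left at 2 genes in WT (*Tbx4* and *Tbx15*) and at 1 in Delta (*Tbx15*), while H3K27me3 was left at 5 in WT and at 6 in Delta. The gene without H3K27me3 in WT at this threshold was *Tbx3*. The smallest −log10 q of any deposited peak was 1.30, a q-value of 0.05.

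*Tbx1* (ENSMUSG00000009097.8, chr16:18581806-18588113, minus strand, mm9) is the pharyngeal gene of the set and lies in the segment syntenic to the human 22q11 deletion region. A single H3K27me3 peak of 21873 bp in WT and 21012 bp in Delta covered the whole gene. Its fold enrichment over input was 10.5 in WT and 11.9 in Delta, which ranked 29 of 11345 and 14 of 10881 peaks. Of the 6 genes, it had the highest H3K27me3 enrichment in both genotypes. The gene had 2 H2AK119ub peaks per genotype, one across the TSS and one over the gene body, which in WT ran past the end of the gene for 1997 bp, and they covered 6862 bp of its window in WT and 7086 bp in Delta, of which 5990 bp were shared. The fold enrichment of the 2 peaks was 3.54 and 3.79 in WT, and 4.20 and 4.38 in Delta. These values are over input and are not scaled by the *Drosophila* reference. The median of the whole H2AK119ub list was also higher in Delta, 4.00 beside 3.62 in WT.

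H3K4me3 at *Tbx1* was broken into short peaks. There were 4 in WT, of 171 to 927 bp, and 2 in Delta, of 389 and 1093 bp. Covered length was 1462 bp and 1482 bp, of which the Delta value rested on the peak of 1093 bp with a −log10 q of 1.83. With a −log10 q of 3 or more it was 1369 bp (WT) and 389 bp (Delta), and with peaks up to 3000 bp apart joined, 4729 bp and 1482 bp. The WT peak of 171 bp across the first TSS (−26 to 144 bp) had no counterpart in Delta. Over the second annotated TSS, 1051 bp downstream, both genotypes had a peak, at 1031 to 1504 bp in WT and at 1015 to 1403 bp in Delta, with fold enrichments of 4.32 and 4.19. At *Tbx1*, the window edge mattered for single peaks. A WT H3K4me3 peak was counted with 93 bp inside the window, and a Delta H3K4me3 peak and a Delta H2AK119ub peak lay 269 bp and 263 bp outside it.

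*Tbx2* (ENSMUSG00000000093.6, chr11:85646053-85655450, plus strand) encodes a repressor and lies 44473 bp from *Tbx4* on the same strand. H3K27me3 covered its window completely in both genotypes, in 1 peak of 21286 bp (WT) or 20340 bp (Delta). Its fold enrichment was 10.2 in WT and 7.31 in Delta, so that its rank went from 46 to 1085. The other 4 genes with a long H3K27me3 peak ranked between 29 and 360 in WT and between 14 and 414 in Delta, and *Tbx2* in Delta lay outside both ranges. H2AK119ub covered 8829 bp in WT and 6585 bp in Delta. Upstream of the gene, a WT peak of 4564 bp at −5673 to −1110 bp had no counterpart in Delta, and the WT peak of 7438 bp over the gene body was met by 2 Delta peaks of 2927 and 4621 bp.

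The H3K4me3 peaks of *Tbx2* differed most in shape. WT had 5 peaks of 170 to 1455 bp, the one at the TSS spanning −317 to 1137 bp. Delta had 2, and the one at the TSS was 4695 bp long and spanned −2231 to 2463 bp. That length ranked 96 of 15412 Delta H3K4me3 peaks. Covered length in the window was 3403 bp in WT and 6291 bp in Delta, 2888 bp longer in Delta, and 2 of 14001 genes with the mark had a larger gain. The fold enrichment of the TSS peak was 5.93 in WT and 5.38 in Delta. The gain depended on gaps between WT peaks: once peaks up to 3000 bp apart were joined, *Tbx2* had 8474 bp in WT and 8218 bp in Delta.

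*Tbx4* (ENSMUSG00000000094.6, chr11:85699924-85729599, plus strand), the hindlimb gene, had the H3K27me3 domain that differed most in length. The long peak measured 17365 bp in WT, from −2733 to 14631 bp, and 22090 bp in Delta, from −5112 to 16977 bp, so that it reached further on both sides in Delta. WT had 2 shorter peaks, 1 on each side, inside the span of the Delta peak. With the peak within the window included, H3K27me3 covered 17413 bp of the window in WT and 19478 bp in Delta, a gain larger than that of 97.8% of the 9317 genes with the mark. Joining peaks up to 3000 bp apart gave 18411 bp in WT and 19478 bp in Delta. Fold enrichment of the long peak was 9.07 and 8.75.

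H2AK119ub at *Tbx4* was called as 5 peaks of 289 to 2555 bp in WT and as 1 peak of 5716 bp in Delta, at 1506 to 7221 bp, with covered lengths of 5067 bp and 5716 bp. The direction depended on gaps between the WT peaks, since joining those up to 3000 bp apart gave 11169 bp for WT and 5716 bp for Delta. The WT peak across the TSS, of 1326 bp, had no counterpart in Delta. The WT peak of highest enrichment, 597 bp long at 9578 to 10174 bp, lay in an intron of the longest transcript with no counterpart in Delta. A further coding TSS, that of Tbx4-002, lies just past the end of this peak, at 10343 bp. The peak's fold enrichment of 4.66 ranked 16 of 4922 WT peaks, with a −log10 q of 3.64. Its central 300 bp are shown because this was the strongest call by q-value among the WT H2AK119ub peaks of the set and it stood alone to one genotype. Capitals mark CpG dinucleotides in this and the following sequences, which were read from the plus strand of the mm9 genome.
Tbx4 WT H2AK119ub, chr11:85709651-85709950: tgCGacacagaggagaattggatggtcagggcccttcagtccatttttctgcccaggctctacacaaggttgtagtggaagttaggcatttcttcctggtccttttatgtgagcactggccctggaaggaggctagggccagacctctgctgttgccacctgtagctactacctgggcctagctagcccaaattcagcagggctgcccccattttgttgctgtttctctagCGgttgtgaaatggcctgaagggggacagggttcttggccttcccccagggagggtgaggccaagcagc
The sequence held 2 CpG in 300 bp, 0.667 per 100 bp, and its GC content was 55.7%. The median of all WT H2AK119ub peaks was 2.25 CpG per 100 bp.

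H3K4me3 at *Tbx4* was weak. There were 4 peaks of 236 to 753 bp in WT and 2 of 220 and 772 bp in Delta, and covered length was 1860 bp and 992 bp. Under the stricter threshold, a −log10 q of 3 or more, none of the WT peaks was left, and the Delta peak of 220 bp beside the TSS remained. The interval between *Tbx2* and *Tbx4* held no H3K27ac peak in either genotype, and H3K27me3 covered 24.4% of it in WT and 27.6% in Delta.

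*Tbx15* (ENSMUSG00000027868.5, chr3:99044304-99158182, plus strand), a gene of skeletal and dermal mesoderm, was the longest of the 6 at 113879 bp. Its protein-coding TSS is at position 99057683, and a processed transcript, Tbx15-002, starts 13379 bp upstream. H3K27me3 formed 1 peak over both starts, 30991 bp in WT and 31604 bp in Delta, reaching from −21559 to 10044 bp around the coding TSS in Delta. By length it ranked 38 of 11345 in WT and 31 of 10881 in Delta, and all 30991 bp of the WT peak lay in the Delta peak. Fold enrichment was 8.66 and 9.62.

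H2AK119ub in the *Tbx15* window was called as 7 peaks in WT and 5 in Delta and covered 3452 bp and 4726 bp, but the positions shared 831 bp. The strongest Delta peak was 237 bp long, lay 12 bp after the start of Tbx15-002, and had the highest fold enrichment of the 2388 Delta peaks, 5.47, with a −log10 q of 4.36. WT had a peak of 2280 bp that contained this one, with a fold enrichment of 3.68 and a −log10 q of 1.70. The strongest WT peak, 280 bp long at −8838 to −8559 bp, had a fold enrichment of 4.69, which ranked 13 of 4922, and no counterpart in Delta. So each genotype had a short, strong call in the region before the coding TSS, at different positions. The fold enrichment of a broad peak is an average over its length, and short peaks can reach higher values.
Tbx15 Delta H2AK119ub, chr3:99044316-99044552: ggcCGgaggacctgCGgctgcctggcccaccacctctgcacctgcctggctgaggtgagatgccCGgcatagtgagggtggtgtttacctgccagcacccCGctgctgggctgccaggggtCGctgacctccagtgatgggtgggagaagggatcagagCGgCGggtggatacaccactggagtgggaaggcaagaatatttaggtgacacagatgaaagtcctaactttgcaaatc
Tbx15 WT H2AK119ub, chr3:99048845-99049124: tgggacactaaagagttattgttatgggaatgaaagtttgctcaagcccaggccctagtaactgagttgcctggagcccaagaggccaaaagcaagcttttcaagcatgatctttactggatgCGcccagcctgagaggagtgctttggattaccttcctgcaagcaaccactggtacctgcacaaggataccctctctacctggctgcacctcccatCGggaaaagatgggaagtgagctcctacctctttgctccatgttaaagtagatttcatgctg
These are the whole strongest peak of each genotype. The Delta sequence held 7 CpG in 237 bp (2.95 per 100 bp) and 54 bp of it were in an exon of Tbx15-002. The WT sequence held 2 CpG in 280 bp (0.714 per 100 bp) and was intronic to that transcript. The medians of the whole lists were 2.47 in Delta and 2.25 in WT.

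H3K4me3 was called over the coding TSS of *Tbx15* and downstream of the start of Tbx15-002, without covering that start. Peaks near Tbx15-002 began at −13306 bp in WT and −12967 bp in Delta. They were 1177 bp long in WT and 749 bp in Delta, and peaks at the coding TSS 1153 bp and 1103 bp. The third WT peak, of 162 bp, had no counterpart. Fold enrichment at the coding TSS was 4.11 in WT and 5.04 in Delta, both below that of most peaks of their list, as 19.3% and 33.2% of the peaks had lower values. Near Tbx15-002 it was 3.245 in WT and 4.53 in Delta, above 4.43% and 24.5% of the lists. The same H3K27me3 peak ran on over the neighbour *Wars2*, 1194 bp from *Tbx15*, for 6417 bp of its window in WT and 6986 bp in Delta.

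*Tbx18* (ENSMUSG00000032419.7, chr9:87597635-87626095, minus strand), a repressor of somitic and epicardial mesoderm, had the least H2AK119ub in WT, and in Delta the least of the genes with a call. WT had 1 peak of 1875 bp at −3631 to −1757 bp, of which 744 bp lay in the window, and Delta had 1 peak of 355 bp at 1556 to 1910 bp. The peaks shared no base, and the Delta peak had a −log10 q of 1.54. *Tbx18* therefore had H2AK119ub in both genotypes by the rule, at different places. H3K27me3 was 18419 bp in WT and 18923 bp in Delta with 18025 bp in common, and its fold enrichment was 8.31 and 8.75. H3K4me3 formed 1 peak downstream of the TSS, of 1422 bp in WT and 1507 bp in Delta with 1314 bp in common.

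*Tbx3* (ENSMUSG00000018604.11, chr5:120120678-120134733, plus strand), a repressor that is also expressed in pluripotent cells, had the opposite balance of H3K4me3 and H3K27me3. Its H3K4me3 peak was 7293 bp in WT and 8209 bp in Delta, from 1888 bp and 2520 bp upstream of the TSS. By length it ranked 14 of 16038 and 6 of 15412. Delta had 2 further peaks, of 1049 bp at 9808 to 10856 bp over the TSS of a shorter transcript (10082 bp) and of 372 bp. Covered length was 7293 bp in WT and 9610 bp in Delta, 2317 bp longer in Delta, and 5 of 14001 genes with the mark had a larger gain. Joining peaks up to 3000 bp apart gave 7293 bp and 10821 bp, and a fold enrichment of at least 4, which leaves out the 2 further Delta peaks, gave 7293 bp and 8189 bp. The fold enrichment of the long peak was 8.50, above 76.1% of the list, in WT and 9.30, above 95.1%, in Delta.

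H3K27me3 at *Tbx3* lay inside the H3K4me3 peak, downstream of the TSS. WT had 1 peak of 3823 bp at a fold enrichment of 3.09 and a −log10 q of 2.11, and Delta had 2 peaks of 2560 and 773 bp at 4.01 and 3.22. The longer Delta peak had a −log10 q of 3.79. A longer H3K27me3 peak lay upstream, outside the window, 9624 bp long in WT and 8071 bp long in Delta, 2212 bp and 3762 bp from the window's edge. H2AK119ub was called in WT as 2 peaks of 1656 and 1812 bp, 1 upstream at −3444 to −1789 bp and 1 at the end of the gene at 11369 to 13180 bp. Their −log10 q was 1.81 and 2.00, and neither overlapped H3K27me3. Delta had none in the window, and its nearest peak, of 242 bp, was 4039 bp outside.

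H3K27ac was called at *Tbx3* as 1 peak in WT and 3 in Delta. The WT peak was 321 bp long at −566 to −246 bp, with a fold enrichment of 3.96 and a −log10 q of 2.76. The Delta peaks were 601 bp at −2996 to −2396 bp, 1029 bp at −1369 to −341 bp and 473 bp at 928 to 1400 bp, with fold enrichments of 3.86, 4.58 and 4.66. Covered length was 321 bp in WT and 1607 bp in Delta, 5.01 times as long, beside a ratio of 1.11 over all genes. The gain was larger than that of 98.2% of the 6126 genes with the mark. The most upstream Delta peak was counted with 105 bp in the window. At a −log10 q of 3 or more, the WT peak was lost and 2 Delta peaks were left. The peak of 473 bp in Delta was exonic, with 472 bp inside the H3K27me3 peak of the same genotype. The cells were sorted in bulk, so marks on the same cells and marks on different cells cannot be told apart.

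The bases covered by H3K27ac in both genotypes are shown because they are the only H3K27ac shared by the genotypes at any of the 6 genes. They lie at −566 to −341 bp from the *Tbx3* TSS, within an intron of the transcript Gm2301-003.
Tbx3 shared H3K27ac, chr5:120120112-120120337: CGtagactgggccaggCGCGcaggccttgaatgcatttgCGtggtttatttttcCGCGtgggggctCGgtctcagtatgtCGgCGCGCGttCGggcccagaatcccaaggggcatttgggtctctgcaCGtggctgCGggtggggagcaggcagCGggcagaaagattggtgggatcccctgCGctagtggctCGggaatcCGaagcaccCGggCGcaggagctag
This stretch held 20 CpG in 226 bp (8.85 per 100 bp), close to the medians of all H3K27ac peaks, 8.61 in WT and 8.62 in Delta. It was richer in CpG than the 3 H2AK119ub sequences above.

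**Figure D2:**
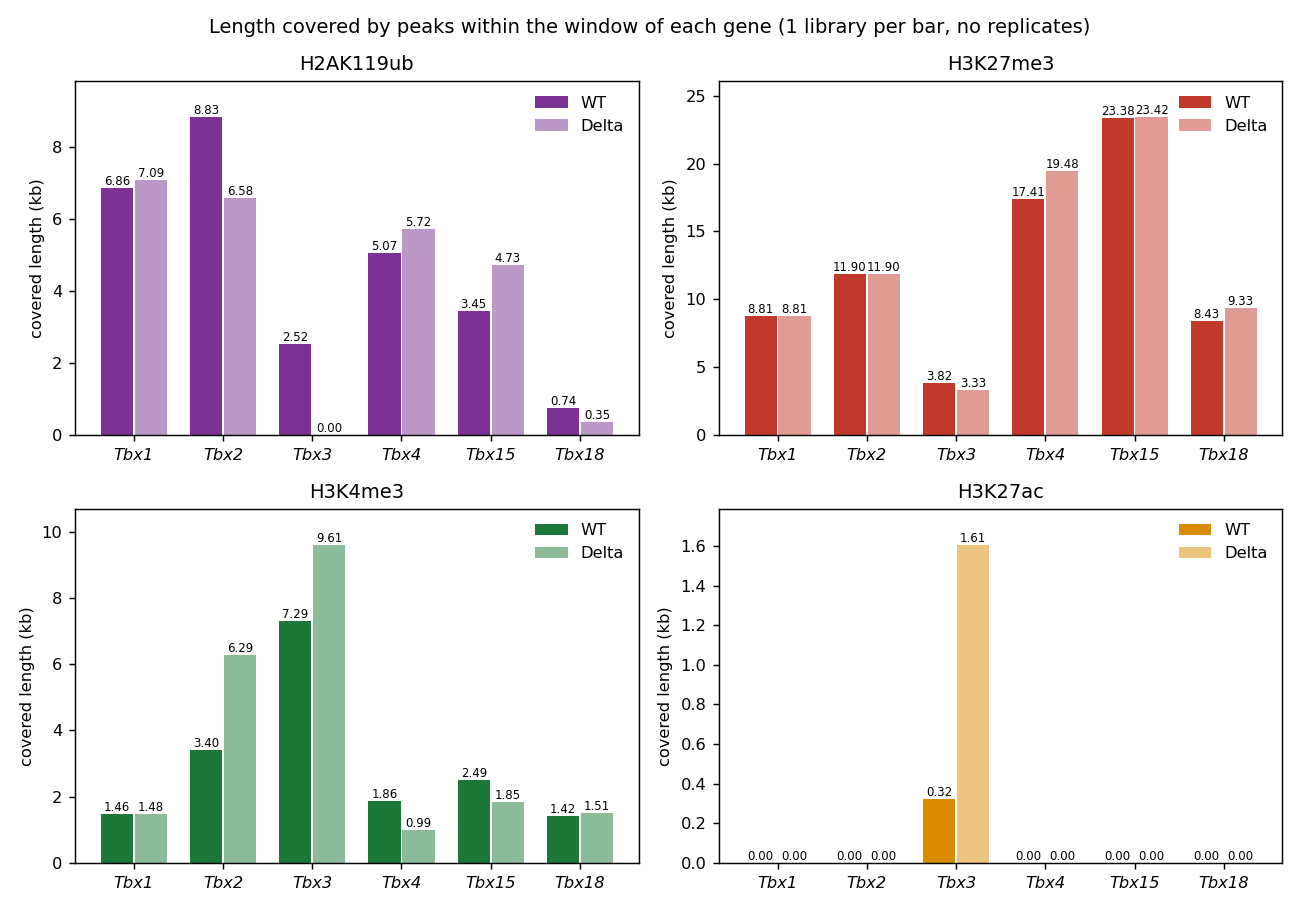
Length covered by peaks in the window of each gene (kb), as bars for WT (dark) and Delta (light), in 1 panel per mark; each bar is 1 library, so there are no error bars. H2AK119ub is longer in Delta at *Tbx1*, *Tbx4* and *Tbx15* and shorter at *Tbx2*, *Tbx3* and *Tbx18*, and H3K4me3 is longest at *Tbx3* in both genotypes.

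Over the 6 genes together, H2AK119ub covered 27478 bp in WT and 24468 bp in Delta, a ratio of 0.891. Over all protein-coding genes, the ratio was 0.522. For the 5 genes with the mark in both genotypes the median ratio was 1.03, beside 0.690 over the 1089 such genes. Delta was longer at 3 of the 6 genes and shorter at 3, while 80.0% of all genes with the mark had shorter coverage in Delta. Among the gene lists described below, the summed lengths in WT and Delta were 57692 and 59664 bp (pharynx) and 46569 and 39420 bp (limb). They were 13436 and 10898 bp for the other T-box genes, 13793 and 14248 bp (neural) and 6539 and 5090 bp (blood). For the cardiac or paraxial list they were 2224 and 567 bp, and for the pluripotency list 1800 and 0 bp. The lists thus differed: lengths were close in the pharyngeal and neural lists and much shorter in Delta in the cardiac or paraxial and pluripotency lists. A balance was therefore not particular to the 6 genes, which were chosen in part on the Delta H2AK119ub list. With peaks up to 3000 bp apart joined, the ratio of the 6 genes was 0.752, and Delta was longer at *Tbx15*, equal at *Tbx1* and shorter at the other 4. With the same number of peaks taken from each list, by −log10 q, the ratio of the 6 genes was 0.965. The ratio depended on the strength of peaks counted: it was 0.270 at a −log10 q of 3 or more, where 3 peaks remained, and 7.74 at a fold enrichment of at least 4. The whole Delta list had a higher median fold enrichment (4.00) than the WT list (3.62), so that this last threshold keeps more of it. It also turned *Tbx2*, with 0 bp left in WT and 3658 bp in Delta. The ratio over all genes was not computed under these alternatives, so the comparison with 0.522 is given for the main setting alone.

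H3K27me3 covered 73752 bp in WT and 76269 bp in Delta, a ratio of 1.03 beside 1.00 over all genes. It was longer in Delta at *Tbx4*, *Tbx15* and *Tbx18*. The windows of *Tbx1* and *Tbx2* were covered completely in both genotypes and so could not show a difference. At *Tbx3* it was shorter in Delta (3333 bp against 3823 bp), but longer at a −log10 q of 3 or more or a fold enrichment of at least 4 (2560 bp against 0 bp) and with joined peaks (4431 bp against 3823 bp). Peaks of 10 kb or more made up 3.64% of the WT list and 4.12% of the Delta list, and 5 of the 6 genes had one in both genotypes, beside 2.09% of all genes. H3K4me3 covered 17932 bp in WT and 21734 bp in Delta, a ratio of 1.21 beside 0.910 over all genes, with the largest gains at *Tbx2* and *Tbx3* and shorter coverage in Delta at *Tbx4* and *Tbx15*. The median ratio over the 6 genes was 1.04, beside 0.928 over all genes. When peaks up to 3000 bp apart were joined, the ratio of the 6 genes turned to 0.859, with WT longer at *Tbx1*, *Tbx2*, *Tbx4* and *Tbx15*. The ratio over all genes with joined peaks was not computed.

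**Figure D3:**
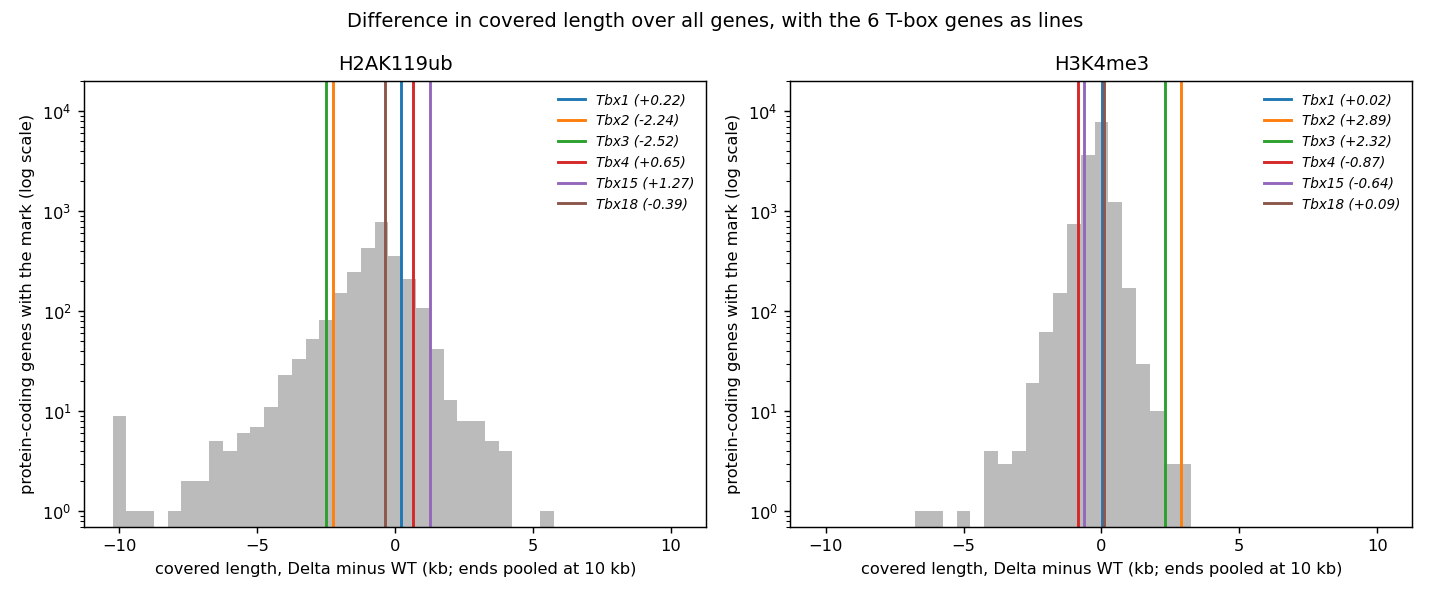
Covered length in Delta minus WT (kb) over all protein-coding genes with the mark, as grey histograms with a log count axis, with each of the 6 genes as a coloured line; differences beyond 10 kb are pooled in the end bins. In the H3K4me3 panel *Tbx2* (2888 bp) and *Tbx3* (2317 bp) lie at the upper end, and in the H2AK119ub panel the genes lie on both sides of 0.

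The marks lay within one another at 5 of the genes. Of the bases of H2AK119ub peaks at the 6 genes, 89.0% in WT and 100% in Delta lay in an H3K27me3 peak of the same genotype, beside 80.0% and 96.2% of the whole lists. The WT exceptions were both peaks of *Tbx3* and part of the upstream peak of *Tbx2*. H3K4me3 peaks lay wholly in H3K27me3 at *Tbx1*, *Tbx2*, *Tbx4*, *Tbx15* and *Tbx18* in both genotypes, and for 52.4% (WT) and 34.6% (Delta) of their length at *Tbx3*. In the whole H3K4me3 lists this share was 31.0% and 29.9%. Within the H3K27me3 span of either genotype, H2AK119ub covered from 9.71% (*Tbx18*) to 55.6% (*Tbx2*) in WT and from 2.95% (*Tbx18*) to 40.0% (*Tbx1*) in Delta at the 5 genes, and none at *Tbx3*.

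Peaks were also compared by whether the other genotype had a peak at the same place, with at least 1 bp in common. All 7 H3K27me3 peaks of WT and all 7 of Delta had a counterpart, beside 73.5% and 75.3% of the lists. Their median lengths were 18419 bp and 20340 bp, beside 1304 bp and 1439 bp in the lists. A long peak meets the 1 bp criterion more easily, so these shares are not compared like for like. For H2AK119ub, 8 of 19 WT peaks had one (42.1%, 95% Wilson interval 23.1 to 63.7, beside 31.4% of the list), and so did 7 of 11 Delta peaks (63.6%, 35.4 to 84.8, beside 67.2%). For H3K4me3, 11 of 18 WT peaks had one (61.1%, 38.6 to 79.7) and 10 of 12 Delta peaks (83.3%, 55.2 to 95.3), beside 92.1% and 96.0% of the lists. Median lengths of these H3K4me3 peaks were 642 bp in WT and 1071 bp in Delta, beside 1270 bp and 1197 bp in the lists. The H3K4me3 shares are therefore not compared like for like either. The intervals cover counting error alone, and peaks of one gene are not independent of each other. The 7 WT H3K4me3 peaks without a counterpart were 162 to 531 bp long.

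**Figure D4:**
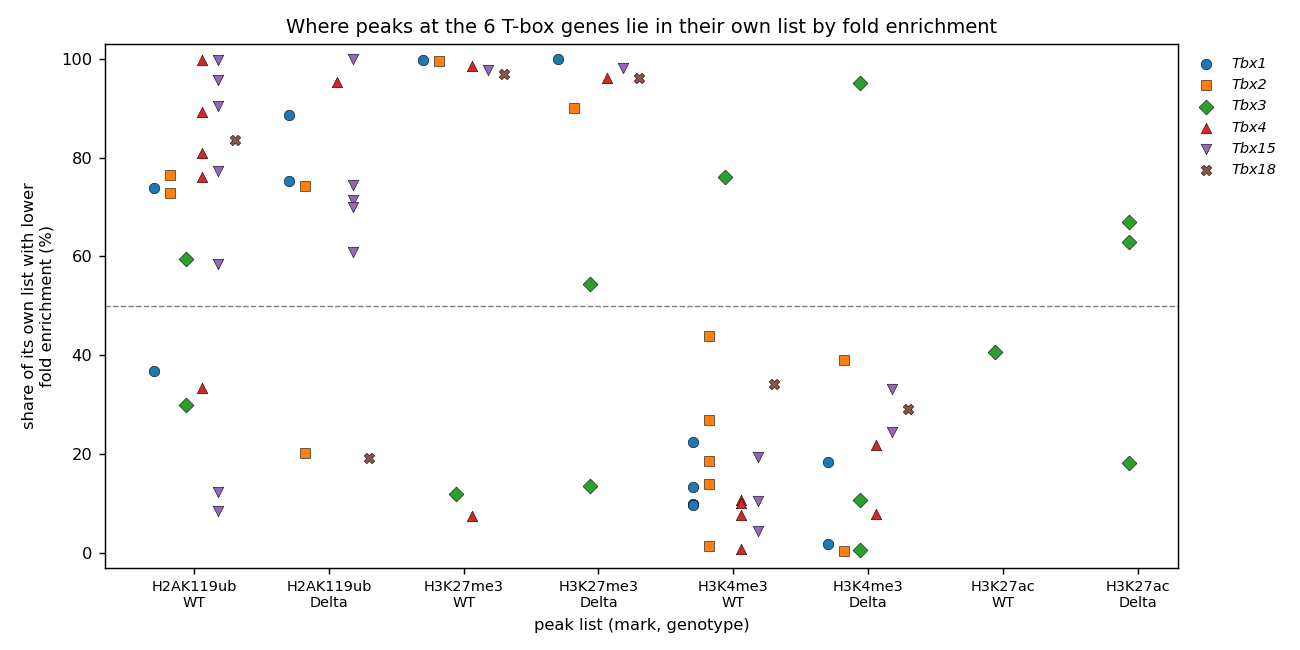
For every peak at the 6 genes, the share of peaks in its own list with a lower fold enrichment (%), by mark and genotype, with 1 symbol per gene; the dashed line is the middle of the list. Long H3K27me3 peaks lie at 90.0% or above, while H3K4me3 peaks lie below the line except the long peak of *Tbx3*.

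Within their own lists, the long H3K27me3 peaks of *Tbx1*, *Tbx2*, *Tbx4*, *Tbx15* and *Tbx18* were above 96.8% of peaks in WT and above 90.0% in Delta by fold enrichment. The H3K4me3 peaks had a median fold enrichment of 3.66 in WT and 4.29 in Delta, below the list medians of 6.42 and 6.00. The H2AK119ub peaks had medians of 3.81 and 4.19, near the list medians of 3.62 and 4.00, and were longer, with median lengths of 1326 bp and 2840 bp beside 717 bp and 771 bp.

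CpG density at the promoters was above the median of all genes. In the 500 bp on each side of the first coding TSS, the density was 9.39 CpG per 100 bp at *Tbx2*, 8.19 at *Tbx3*, 7.09 at *Tbx15*, 5.50 at *Tbx1* and *Tbx18* and 4.90 at *Tbx4*, beside a median of 4.10 over all genes. At *Tbx4* the ratio of observed to expected CpG, 0.512, was below the median of 0.553. *Tbx2* and *Tbx3*, the genes with the most H3K4me3 in both genotypes, were also the densest. In the 250 bp before to 50 bp after the TSS, searched on both strands, the E-box CANNTG was found at *Tbx2*, *Tbx4*, *Tbx15* and *Tbx18*, beside 69.4% of all genes. The GATA motif AGATAA (10.3% of all genes) and the T-box half-site GGTGTGA (3.80%) were found at none of the 6. A match is a string of letters and not a binding site.

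Of 11 other mouse T-box genes, *Tbr1*, *Tbx5* and *Tbx21* had the same combination as the 5 genes, and none had the whole of that of *Tbx3*. *T* and *Tbx20* shared part of it, with H3K27me3 and H3K4me3 in both genotypes and H2AK119ub in WT alone (250 bp and 395 bp). Neither had H3K27ac in WT. *Tbx5*, the forelimb gene and neighbour of *Tbx3*, had H2AK119ub of 8265 bp (WT) and 8307 bp (Delta) and H3K27me3 of 17144 bp and 22289 bp. The 149938 bp between *Tbx3* and *Tbx5* held no H3K27ac peak, and H3K27me3 covered 23.4% in WT and 19.6% in Delta. *Tbx20*, a cardiac gene, and *Mga* had H3K27ac in Delta alone, of 164 bp and 773 bp. *Tbx10* and *Tbx19* had none of the marks.

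**Figure D5:**
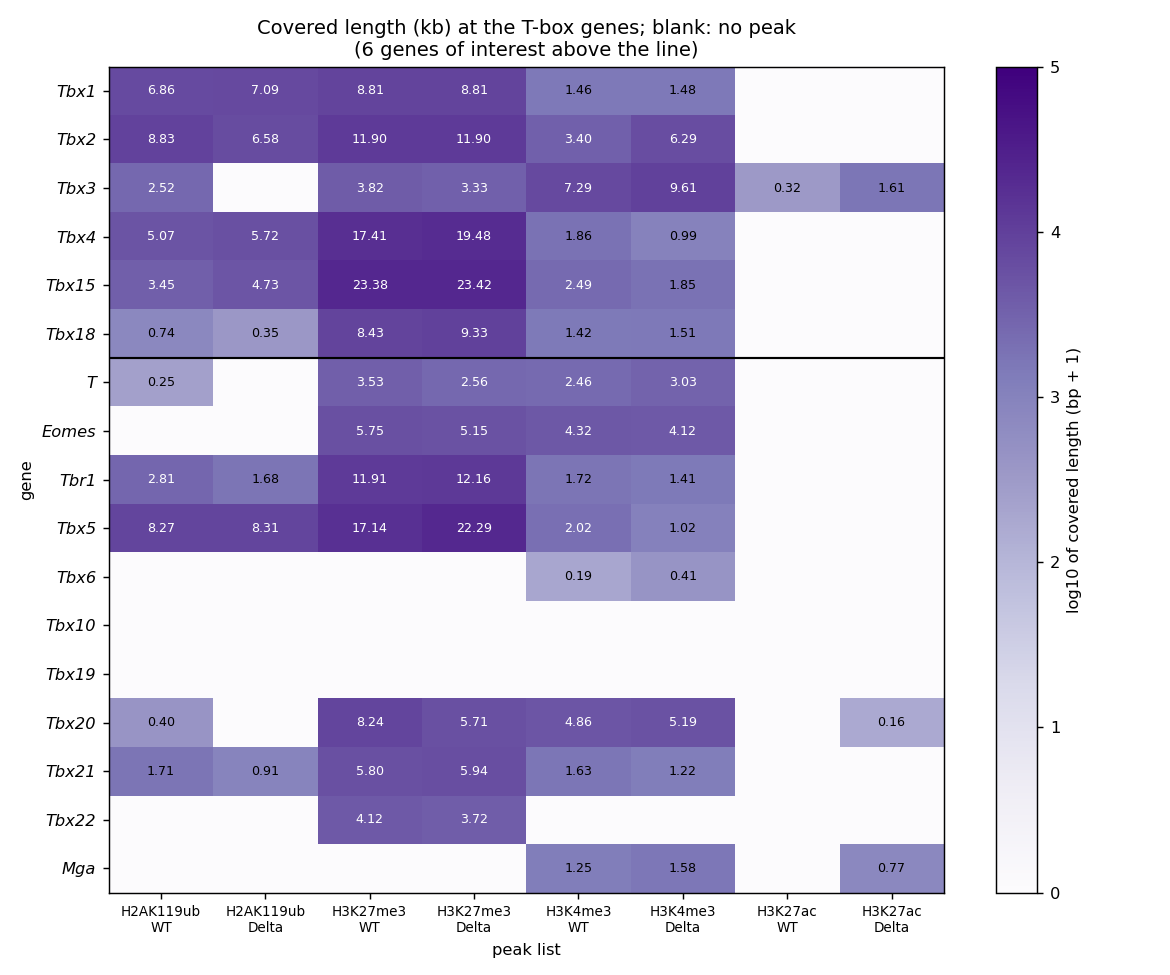
Covered length (kb) at the 6 genes, above the line, and at 11 other T-box genes for each of the 8 peak lists, with colour on a log scale and blank cells for no peak. *Tbr1*, *Tbx5* and *Tbx21* carry the same marks as the 5 genes, and H3K27ac appears at *Tbx3* in both genotypes and at *Tbx20* and *Mga* in Delta.

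Genes that act with T-box factors in limb and pharynx were looked at with lists chosen with earlier results of these data known. The combination of the 5 genes was found at 8 of 12 limb genes (*Pitx1*, *Prrx1*, *Hand2*, *Shh*, *Msx1*, *Lmx1b*, *Alx4* and *Meis2*) and at 7 of 9 pharyngeal genes (*Fgf8*, *Pax1*, *Pax9*, *Isl1*, *Gbx2*, *Hoxa3* and *Dlx5*), beside 4.07% of all genes. *Pitx1*, which lies upstream of *Tbx4* in the hindlimb, had H2AK119ub of 8970 bp (WT) and 10713 bp (Delta) and H3K27me3 of 13639 bp in both. *Pax9*, a gene of the pharyngeal pouches, had H2AK119ub of 6952 bp in WT and 2761 bp in Delta with H3K27me3 of 14170 bp and 14116 bp. The covered length of H2AK119ub thus differed in both directions among these genes too.

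Marker genes were read for the state of the cells. Of 6 blood and haemangioblast genes, 5 had H3K27ac in the window in WT and 0 in Delta, beside 20.8% and 23.6% of all genes. The summed lengths were 5820 bp and 0 bp. Within 2500 bp of a TSS, without the gene body, 4 of these genes had H3K27ac in WT and 0 in Delta. All 6 had H3K4me3 in both (34098 bp and 25131 bp). *Tal1*, the gene that encodes SCL, had H3K27ac of 2169 bp (WT) and 0 bp (Delta) and H3K4me3 of 9615 bp and 6458 bp. No H3K27ac was called at the 4 cardiac or paraxial genes, the 3 pluripotency genes or the 2 neural genes in either genotype. H3K4me3 was called at 3 of the cardiac or paraxial genes in both genotypes, with summed lengths of 4358 bp in WT and 7290 bp in Delta. Most of this difference lay at *Pdgfra*, with 3190 bp and 5753 bp. At *Mesp1* the lengths were 977 bp and 1123 bp, and at *Tbx6* 191 bp and 414 bp. H3K4me3 summed to 272 bp and 690 bp at the pluripotency genes and to 5693 bp and 3780 bp at the neural genes. The missing H3K27ac calls at blood genes and the extra calls at *Tbx3* in Delta stand side by side in the same pair of libraries. Their relation, and the part that the cells passing the sort play in it, was not tested.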

How the data were processed

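ChIP-Rx was performed on sorted day 4 cells, with 1 library per mark and genotype. According to the study's methods and the submitters' processing notes, reads were aligned to mm9 with Bowtie (dm3 for the spike-in), and broad peaks were called with MACS2 2.0.10 per library against the input of the same genotype. Spike-in scaling was not applied to the peak calls. The deposited files give for each peak its position, a score (not used), the fold enrichment over input as a ratio, and the −log10 p-value and q-value computed by the authors' caller.

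Peaks were joined to protein-coding genes of GENCODE M1 (22359, mitochondrial genes left out) with Python 3.11.15 and numpy 2.4.6, with a TSS distance of 2500 bp and a minimum overlap of 1 bp. The join was tested on simulated data and checked with bedtools 2.31.1. Sequences were read from the mm9 genome (NCBIM37). All 6 genes were named, and the nearest neighbours, other T-box genes, limb, pharyngeal and marker genes were listed. A further gene of the pharyngeal list is not reported here. The genes and lists were chosen with earlier results of these data known. With 1 library per group, no test was made. Alternatives were stricter q and fold thresholds, other windows, joined peaks, 50% overlap and, chosen after seeing the data, equal numbers of peaks.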

Additional observations from a re-analysis of the deposited data

How the results depend on the processing

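Of 77 alternative values for 20 results, 64 stayed within set limits, 11 moved beyond them and 2, both ratios, changed direction. A further 3 combinations gave no value, as no H3K27ac peak was left in WT. The limit was a fixed factor for counts and ratios, and the Wilson interval of the main value for shares. With so few peaks these intervals are wide, so a share within them can still differ clearly from the value reported. At a −log10 q of 3 or more, H2AK119ub was left at 2 genes in WT and 1 in Delta, its Delta over WT ratio was 0.270 and the shares of peaks with a counterpart were 0% in both genotypes; H3K27ac was left at 0 genes in WT, and its Delta share with a counterpart was 0%. At a fold enrichment of at least 4, H2AK119ub was left at 2 genes in WT and its ratio was 7.74, and H3K27ac was left at 0 in WT. Fewer peaks pass these thresholds by construction. Joining peaks up to 3000 bp apart gave ratios of 0.859 for H3K4me3 and 12.1 for H3K27ac. Asking for 50% of a peak to be covered gave a Delta H3K27ac share of 0%. No paired analysis was possible because each mark and genotype had 1 library. Depth could not be read from the lists, so a mark without a peak was not detected at this threshold, which does not show that it was absent.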
